A study of Mus musculus with 10 samples.

Results

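The integrated stress response was followed through 10 genes of sorted mouse erythroid progenitors. They were chosen by gene symbol for their role: the heme-regulated eIF2 kinase Eif2ak1, the transcription factor Atf4, its targets Ddit3, Trib3, Asns, Chac1, Psat1 and Sesn2, and the eIF2 phosphatase subunits Ppp1r15a and Ppp1r15b. All 10 were among the 24421 genes of the count table. R2 cells, erythroid progenitors that carry both CD71 and Ter119, had been sorted from the marrow of transplanted mice, about 100000 cells per mouse, and their poly(A) RNA had been sequenced with 1 library per mouse.

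The 10 mice fell into 4 genotypes of the donor marrow: Ddx41+/+Trp53+/+ (3 mice, replicates 10, 11 and 12), Ddx41+/-Trp53+/+ (2 mice, replicates 32 and 34), Ddx41+/+Trp53+/- (3 mice, replicates 22, 23 and 24) and Ddx41+/-Trp53+/- (2 mice, replicates 46 and 47). Ddx41 encodes a DEAD-box RNA helicase and Trp53 the tumor suppressor p53. Lethally irradiated BoyJ mice had received 1000000 marrow cells and were sampled 8 weeks after transplant. The donor strains carried the tamoxifen-activated Rosa26-CreERT2, which is expressed in all tissues, and tamoxifen was given at 1 mg per day for 5 days in 2 rounds. Ddx41+/- marrow lost 1 floxed Ddx41 allele after tamoxifen, whereas Trp53+/- marrow carried a germline knockout allele. The age of the animals was not given in the sources used here, and cells of the irradiated host that survived cannot be told apart from donor cells in the counts.

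The libraries held 7866648 to 20283930 counts, the fewest in Ddx41+/-Trp53+/+ replicate 34. Expression is given as CPM, a gene's counts per 1000000 counts of its scaled library. Mean Ddx41 mRNA was at 23.2 and 24.2 CPM in the Ddx41+/+ genotypes against 15.2 and 14.1 CPM in the Ddx41+/- genotypes. Mean Trp53 mRNA was at 57.9 and 63.7 CPM with Trp53+/+ against 43.1 and 43.2 CPM with Trp53+/-. Both means were lower in the genotypes labeled heterozygous for the gene. The erythroid label matched Slc4a1 (25470 to 30510 CPM), Alas2 (7007 to 8440 CPM) and Tfrc (2692 to 3458 CPM). The globin genes Hba-a1, Hba-a2 and Hbb-bs were listed at no more than 1.28 CPM, and Hbb-bt had 0 counts in every library. CPM are therefore shares of the counts without globin. Summed neutrophil markers were at 4850 to 8338 CPM over the 10 mice, and summed T and NK cell markers were at 23.6 to 40.1 CPM. In bulk samples, fewer cells of a type and less RNA per cell cannot be told apart.

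In the integrated stress response, any of 4 kinases phosphorylates the translation initiation factor eIF2, which lowers protein synthesis as a whole while letting the ATF4 mRNA be translated. ATF4 then switches on genes for amino acid supply, redox balance and feedback, and the phosphatase subunits encoded by Ppp1r15a (GADD34) and Ppp1r15b (CReP) lead protein phosphatase 1 back to eIF2. In red cell precursors the kinase HRI, encoded by Eif2ak1, is known for matching globin translation to the heme supply. Since HRI activity is set by phosphorylation and ATF4 by translation, mRNA levels measure their transcripts and not their activity.

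ATF4 binds DNA with C/EBP partners at the composite letters TGATGNAA, and related factors bind the cyclic AMP response element TGACGTCA. Both were searched on both strands in the 250 bases before the RefSeq transcription starts (GRCm38.p6), which were found for 9 of the 10 genes and not for Ppp1r15b. The composite was present before Asns and Chac1, whereas 3.91% of all 27025 genes in the table held it. The full element, which reads the same on both strands and contains the core TGACG, was present before Ppp1r15a and in 1.77% of all genes. The core, counted inside or outside the full element, was present before Atf4, Trib3, Chac1, Asns and Ppp1r15a and in 19.8% of all genes. In Ppp1r15a it lay only within the full element. The following stretches show the composite and the full element, in capitals and with the core alone left in lower case, in 2 ATF4 targets and in the phosphatase subunit with the highest level, 5′ to 3′ on the strand of the gene.
Asns, chr6:7693214-7693243, minus strand: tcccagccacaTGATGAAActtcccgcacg
Chac1, chr2:119350992-119351228, plus strand: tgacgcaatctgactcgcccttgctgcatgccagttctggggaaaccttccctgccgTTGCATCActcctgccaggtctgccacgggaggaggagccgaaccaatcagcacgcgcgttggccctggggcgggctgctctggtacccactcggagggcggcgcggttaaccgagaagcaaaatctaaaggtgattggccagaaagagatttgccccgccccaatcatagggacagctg
Ppp1r15a, chr7:45526269-45526518, minus strand: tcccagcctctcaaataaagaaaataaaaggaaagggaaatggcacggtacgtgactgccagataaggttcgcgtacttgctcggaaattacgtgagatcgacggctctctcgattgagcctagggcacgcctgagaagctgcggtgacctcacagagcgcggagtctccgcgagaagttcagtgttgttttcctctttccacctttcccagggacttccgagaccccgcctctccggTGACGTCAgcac
In Chac1 the match lies on the opposite strand, so its letters read TTGCATCA. The Asns match lies 23 to 16 bases before the RefSeq start and inside the longest first exon that GENCODE M21 gives for this gene. A match describes the letters only and is not evidence of binding.

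The 10 genes covered a wide range of levels. Per kb of the longest annotated transcript and averaged over the 10 mice, Ppp1r15a was at 874 ± 63.6 CPM per kb (SD, n = 10) and ranked 40 of 11427 tested genes with a length. Atf4 (291 ± 25.2 CPM per kb) and Eif2ak1 (289 ± 16.7 CPM per kb) followed at ranks 193 and 197 and, on this length, did not differ beyond their spread. Ppp1r15b (74.3 ± 4.75 CPM per kb), Ddit3 (69.6 ± 9.84 CPM per kb) and Asns (61.9 ± 4.05 CPM per kb) formed a next group, in which each neighbouring pair overlapped. Sesn2 (10.8 ± 1.43 CPM per kb), Psat1 (4.28 ± 0.687 CPM per kb), Trib3 (1.46 ± 0.661 CPM per kb) and Chac1 (0.199 ± 0.140 CPM per kb) were lower in that order. With the median transcript length in place of the longest, Eif2ak1 was at 756 and Atf4 at 341 CPM per kb, Asns at 219.7 CPM per kb stood above Ppp1r15b (89.5) and Ddit3 (90.5), and Psat1 at 19.1 CPM per kb stood above Sesn2 (10.8), so these neighbours depend on the length used. Chac1, a glutathione-degrading enzyme, had 0 to 12 counts per library and was the only one of the 10 genes that did not pass the filter on low counts. The remaining 9 were tested among 11846 genes.

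**Figure D1:**
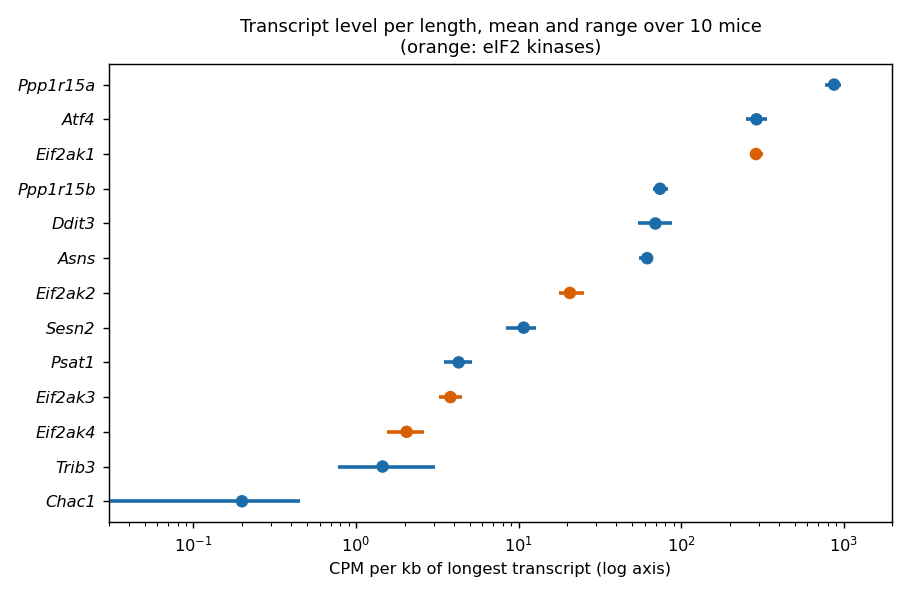
Levels of the 10 genes and the other eIF2 kinases in CPM per kb of the longest transcript, on a log axis; points are means and lines the range over 10 mice, and the line of Chac1 reaches 0. Ppp1r15a sits at 874 CPM per kb and Eif2ak1 at 289 CPM per kb, above Eif2ak2 at 20.7, Eif2ak3 at 3.81 and Eif2ak4 at 2.05 CPM per kb.

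HRI made up most of the eIF2 kinase mRNA. The other kinases were at 20.7 CPM per kb for Eif2ak2 (PKR, which senses double-stranded RNA), 3.81 CPM per kb for Eif2ak3 (PERK, at the endoplasmic reticulum) and 2.05 CPM per kb for Eif2ak4 (GCN2, which senses uncharged tRNA). Eif2ak1 thus held 91.6% ± 0.761 (SD, n = 10) of the summed kinase level per kb, with 89.9% to 92.8% in single mice. With the median transcript length in place of the longest, its share was 83.2% ± 1.46 (SD, n = 10). The phosphatase subunits were also unequal: Ppp1r15a, the stress-inducible one, stood at 11.8 ± 0.958 times (SD, n = 10) the level per kb of Ppp1r15b, the constitutive one. By genotype this ratio averaged 11.1 to 12.7, within the 10.5 to 13.3 of the Ddx41+/+Trp53+/+ mice.

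None of the 9 tested genes was called in any comparison, which required more than a 1.5-fold change together with an adjusted p below 0.05 in edgeR's quasi-likelihood test. With Trp53+/+, Ddx41+/- was compared with Ddx41+/+ and 0 of 9 were called, where 0.54% of all tested genes were (64 of 11846). With Trp53+/-, the same comparison called 0 of 9 and 0.0422% of all genes (5 genes). The difference between these Ddx41 effects was called for 0 of 9 and for 0.0675% of all genes. The Trp53 effect in the Ddx41+/+ mice was called for 0 of 9 and for 0.912% of all genes. Over both genotypes of the other gene, the Ddx41 effect called 0 of 9 against 0.11% of all genes and the Trp53 effect 0 of 9 against 0.287%. At these background shares fewer than 1 of 9 would be called in any of them, so a count of 0 says little by itself. At an unadjusted p under 0.05 in the same order, 0, 1, 1, 1, 1 and 3 of the 9 passed, beside 9.64%, 3.75%, 5.01%, 9.44%, 8.98% and 11.2% of all tested genes. The comparisons share mice and are not independent of one another. By the same rule, Ddx41 itself was not called with Trp53+/+ (log2 fold change -0.63, edgeR adjusted p = 0.0887) or with Trp53+/- (-0.78, adjusted p = 0.177). Its Ddx41 effect over both Trp53 genotypes was called (-0.70, adjusted p = 0.0173). Trp53 was not called in any comparison. Its Trp53 effects stayed under 1.5-fold, at -0.42 in the Ddx41+/+ mice and -0.48 over both Ddx41 genotypes (adjusted p = 0.0327 and 0.00355).

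The intervals bounded most of these genes. With Trp53+/+, the 95% interval of the Ddx41 effect lay within a 1.5-fold change (0.585 on the log2 scale) either way for 8 of 9 genes, all but Trib3. With Trp53+/- it did so for 6 of 9, the exceptions being Trib3, Psat1 and Sesn2. For the Trp53 effect in the Ddx41+/+ mice it did so for 8 of 9, again all but Trib3. The median log2 fold change of the 9 genes was 0.01 with Trp53+/+ (0.0010 over all tested genes) and -0.09 with Trp53+/- (-0.0050 over all tested genes).

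**Figure D2:**
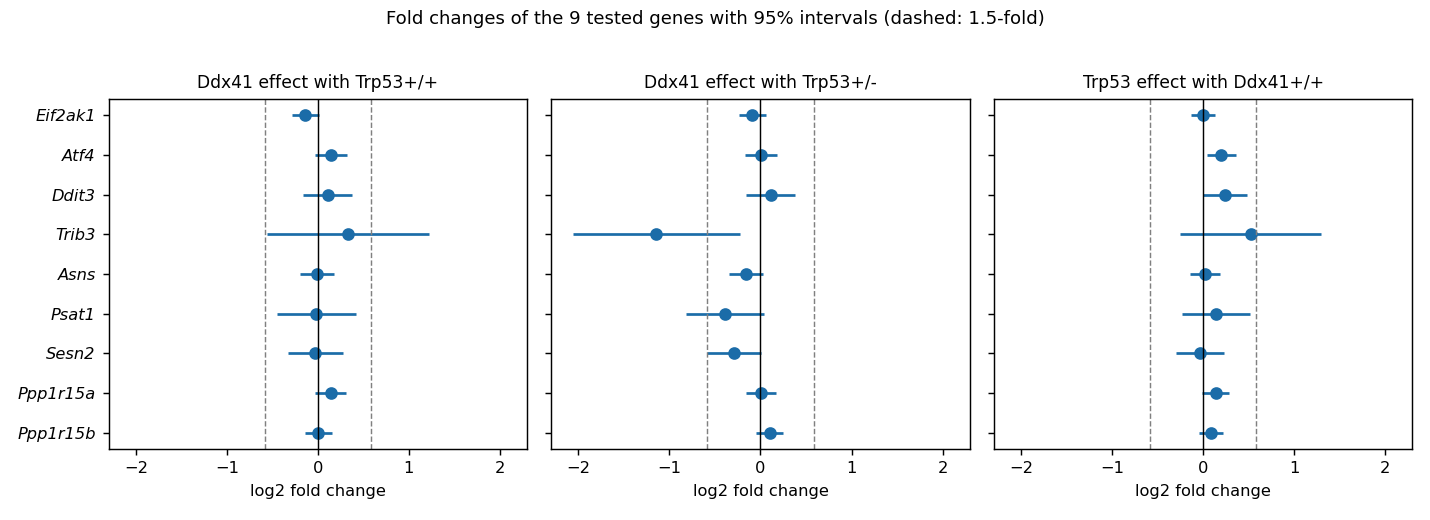
Log2 fold changes (x axis) of the 9 tested genes with 95% intervals from edgeR, for Ddx41+/- against Ddx41+/+ with Trp53+/+ (left) and with Trp53+/- (middle) and for Trp53+/- against Trp53+/+ in the Ddx41+/+ mice (right); dashed lines mark 1.5-fold. Trib3 has the widest intervals, from -0.56 to 1.22 at the left and from -2.06 to -0.23 in the middle.

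The kinase mRNA had lower values in the Ddx41+/- mice, without a call. With Trp53+/+, Eif2ak1 (chromosome 5, 143817788 to 143904251, GRCm38) was at 1295, 1200 and 1381 CPM in the Ddx41+/+ mice and at 1197 and 1151 CPM in the Ddx41+/- mice. Among mice with Trp53+/-, it was at 1324, 1246 and 1294 CPM in the Ddx41+/+ mice and at 1177 and 1245 CPM in the Ddx41+/- mice. Within each Trp53 genotype the Ddx41+/- mice lay below all their controls, if only just (1197 under 1200 CPM and 1245 under 1246 CPM), but across both genotypes replicate 47 lay above replicate 11. The log2 fold change was -0.14 with Trp53+/+ (95% interval -0.29 to 0.01, edgeR adjusted p = 0.572) and -0.09 with Trp53+/- (95% interval -0.24 to 0.06, adjusted p = 1.0). The first was -0.087 without replicate 12 and the second -0.046 without replicate 46. Over both Trp53 genotypes it was -0.11 (95% interval -0.22 to -0.01), which was not called by edgeR (adjusted p = 0.523), and a two-sided exact permutation test within the Trp53 genotypes gave p = 0.04, where 0.01 is the smallest possible. This exact p was one of 45 computed for single genes and was not adjusted. The Trp53 genotypes differed by -0.0043 in the Ddx41+/+ mice (95% interval -0.14 to 0.13). Eif2ak1 varied little over all mice, with a coefficient of variation (CV) of 5.78% where the median tested gene had 14.6%. Eif2ak1 shares 8.59% of its exon bases with Aimp2 on the opposite strand, and Aimp2 had 189 to 566 counts per library against 9060 to 24684 for Eif2ak1.

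The gene most like Eif2ak1 over the 10 mice, by Pearson's r of log2 CPM, was Klhdc10 (0.925, Spearman's rho 0.915). It was followed by Fech (0.903, rho 0.891), the ferrochelatase that inserts iron into heme, and Nubpl (0.901, rho 0.867), an assembly factor of mitochondrial complex I. These 3 are the highest of all tested genes, over mice that share genotypes, and are a description only.

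The known inputs to HRI and the eIF2 complexes held no called gene. Among 6 genes of the relay to HRI and of heme degradation, all 6 were lower in Ddx41+/- with Trp53+/+ (median log2 fold change -0.13) and 3 with Trp53+/- (median 0.0002), and 0 were called in either. The mitochondrial messenger DELE1, listed under 0610009O20Rik, was at -0.20 ± 0.11 (log2 fold change ± SE) and -0.02 ± 0.11. Hmox1, the heme oxygenase, was at -0.19 ± 0.23 and 0.45 ± 0.22. The list of eIF2 and its exchange factor eIF2B held 10 genes, the subunits together with the separate initiation factors Eif2a and Eif2d. Of these 10, 8 were lower with Trp53+/+ and 9 with Trp53+/-, with medians of -0.08 and -0.06 and 0 called. The smallest p values among these 10 belonged to Eif2s3x (-0.19 ± 0.11) and Eif2s2 (-0.14 ± 0.09) with Trp53+/+ and to Eif2b5 (-0.27 ± 0.16) and Eif2s3x (-0.14 ± 0.10) with Trp53+/-. Lonp1, a mitochondrial matrix protease, was at -0.23 ± 0.14 with Trp53+/-. Of the other kinases, Eif2ak2 was at -0.11 ± 0.12 with Trp53+/+ and 0.26 ± 0.11 with Trp53+/-, and Eif2ak4 was at 0.33 ± 0.20 with Trp53+/-.

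**Figure D3:**
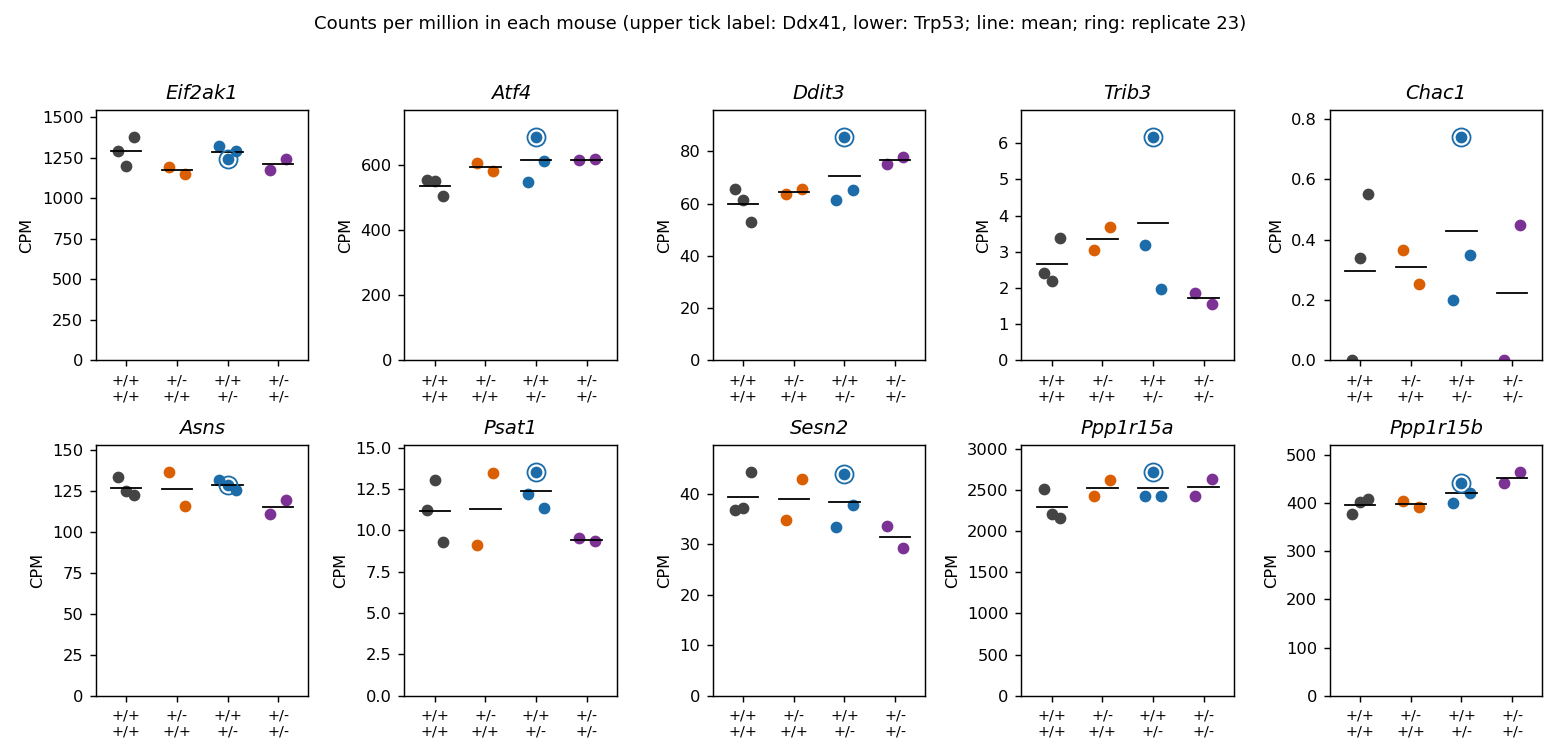
CPM of each of the 10 genes in every mouse (y axis from 0), by Ddx41 and Trp53 genotype; lines are genotype means over 2 or 3 mice, and rings mark Ddx41+/+Trp53+/- replicate 23. Replicate 23 is the highest mouse for Atf4 (687 CPM), Ddit3 (85.6 CPM) and Trib3 (6.18 CPM), while Eif2ak1 stays between 1151 and 1381 CPM.

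Mean Atf4 mRNA was lowest in the mice with both genes intact (537 CPM), without a call. In single mice, Ddx41+/+Trp53+/- replicate 22 lay below Ddx41+/+Trp53+/+ replicates 10 and 11. With Trp53+/+, Atf4 (chromosome 15, 80255184 to 80257541) was at 553, 552 and 506 CPM in the Ddx41+/+ mice and at 606 and 582 CPM in the Ddx41+/- mice. In the Trp53+/- mice, it was at 548, 687 and 612 CPM in the Ddx41+/+ mice and at 617.0 and 617 CPM in the Ddx41+/- mice. The genotypes did not overlap with Trp53+/+, where Ddx41+/- was higher, and overlapped with Trp53+/-, where the Ddx41+/+ mice spread on both sides of the Ddx41+/- mice. The log2 fold change was 0.15 with Trp53+/+ (95% interval -0.03 to 0.32, edgeR adjusted p = 0.633, exact permutation p = 0.1, the smallest possible) and 0.0023 with Trp53+/- (95% interval -0.18 to 0.18). The difference between these effects was -0.14 (95% interval -0.39 to 0.11, adjusted p = 1.0). Trp53+/- exceeded Trp53+/+ by 0.20 in the Ddx41+/+ mice (95% interval 0.04 to 0.36) and by 0.14 over both Ddx41 genotypes (95% interval 0.02 to 0.27), neither of which was called (adjusted p = 0.355 and 0.380). Without replicate 23 these values were 0.11 and 0.086.

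Of the 9 genes, 2 did not overlap between the Ddx41 genotypes with Trp53+/+, Atf4 higher and Eif2ak1 lower, where 24.9% of all tested genes did not overlap. With Trp53+/-, 4 did not overlap, all lower in Ddx41+/- (Eif2ak1, Trib3, Asns and Psat1), where the share of all genes was 20.0%. None did in the Trp53 effect of the Ddx41+/+ mice (14.1% of all genes), in the Ddx41 effect over both Trp53 genotypes (1.57%) or in the Trp53 effect over both Ddx41 genotypes (2.01%). With 2 mice against 3, non-overlap is common, and these counts describe the mice at hand.

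Ddit3, which encodes the stress factor CHOP (chromosome 10, 127290774 to 127296288), followed Atf4 in its levels. With Trp53+/+, it was at 65.4, 61.4 and 52.9 CPM in the Ddx41+/+ mice and at 63.5 and 65.7 CPM in the Ddx41+/- mice. With Trp53+/-, it was at 61.3, 85.6 and 65.2 CPM in the Ddx41+/+ mice and at 75.3 and 78.0 CPM in the Ddx41+/- mice. The Ddx41 genotypes overlapped in both, with log2 fold changes of 0.11 (95% interval -0.17 to 0.38) and 0.11 (95% interval -0.16 to 0.38). Over both Ddx41 genotypes, Ddit3 was 0.24 higher on the log2 scale with Trp53+/- (95% interval 0.06 to 0.43), the smallest adjusted p of any member in any comparison (0.288, edgeR), and the groups overlapped. Without replicate 23 this value was 0.16. Ddit3 shares 3.97% of its exon bases with Mars on the opposite strand. Atf4 and Ddit3 had the highest Pearson's r of the 36 pairs of tested members (0.907 over 10 mice, rho 0.903), and each had Hnrnpm and Nufip2 among its 3 most similar genes. The median r of the 36 pairs was 0.09, against -0.0017 over all pairs of tested genes.

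Trib3, a pseudokinase that feeds back on ATF4 (chromosome 2, 152337422 to 152344032), varied most of the 9 tested genes (CV 45.4%). With Trp53+/+, it was at 2.43, 2.19 and 3.39 CPM in the Ddx41+/+ mice and at 3.04 and 3.68 CPM in the Ddx41+/- mice. Among mice with Trp53+/-, it was at 3.2, 6.18 and 1.98 CPM in the Ddx41+/+ mice and at 1.86 and 1.57 CPM in the Ddx41+/- mice. Ddx41+/- mice were below every Ddx41+/+ mouse with Trp53+/-, while the genotypes overlapped with Trp53+/+. The log2 fold change was -1.15 ± 0.43 (SE) with Trp53+/- (95% interval -2.06 to -0.23, edgeR adjusted p = 1.0) and 0.33 ± 0.42 with Trp53+/+ (95% interval -0.56 to 1.22). The difference between them was -1.48 (95% interval -2.75 to -0.20, adjusted p = 0.920). Leaving out replicate 23, which had 100 Trib3 counts where the other 9 libraries had 28 to 50, brought the fold change with Trp53+/- to -0.57. The gene most like Trib3 was Wars, the tryptophanyl-tRNA synthetase (Pearson's r 0.900, rho 0.891).

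The amino acid synthesis enzymes were close to equal with Trp53+/+ and lower in Ddx41+/- with Trp53+/-, without a call. Asns, asparagine synthetase (chromosome 6, 7675169 to 7693254), was at 134, 125 and 122 CPM in Ddx41+/+ and at 136 and 116 CPM in Ddx41+/- with Trp53+/+. In the Trp53+/- mice, it was at 132, 128 and 125 CPM against 111 and 119 CPM. The first set overlapped fully and the second did not overlap, with log2 fold changes of -0.0064 (95% interval -0.19 to 0.18) and -0.16 (95% interval -0.35 to 0.02, edgeR adjusted p = 1.0). Psat1, phosphoserine aminotransferase of serine synthesis (chromosome 19, 15904678 to 15947337), was at 11.2, 13.0 and 9.27 CPM against 9.12 and 13.5 CPM with Trp53+/+. With Trp53+/-, it was at 12.2, 13.5 and 11.4 CPM against 9.53 and 9.37 CPM. The Ddx41+/- mice with Trp53+/+ therefore spanned the whole range of their controls, and those with Trp53+/- were below theirs by -0.39 (95% interval -0.82 to 0.04, adjusted p = 1.0). For Asns and Psat1 the exact permutation p with Trp53+/- was 0.1, the smallest possible.

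Sesn2, which restrains mTORC1 on loss of leucine and is a target of both ATF4 and p53 (chromosome 4, 132492032 to 132510501), was at 36.8, 37.2 and 44.3 CPM in Ddx41+/+ and at 34.9 and 42.9 CPM in Ddx41+/- with Trp53+/+. Among mice with Trp53+/-, it was at 33.4, 43.8 and 37.8 CPM against 33.6 and 29.2 CPM. The genotypes overlapped in both. The log2 fold change was -0.03 (95% interval -0.33 to 0.27) with Trp53+/+ and -0.29 (95% interval -0.59 to 0.01) with Trp53+/-. The Trp53 effect in the Ddx41+/+ mice was -0.03 (95% interval -0.30 to 0.23), and that of Cdkn1a, the p53 target that encodes p21, was -0.50 ± 0.21 (edgeR adjusted p = 0.436). Cdkn1a was the only one of 18 listed p53 targets called in any comparison. It was higher in Ddx41+/- with Trp53+/+ by 1.20 ± 0.22 (edgeR adjusted p = 0.0153), where 0.54% of all tested genes were called. This call was lost without replicate 11, 32 or 34. Of the 18, 13 were higher there, and 7 of the 18 had an unadjusted p under 0.05 (9.64% of all tested genes). Over both Ddx41 genotypes 12 of 18 were lower with Trp53+/- (median -0.17), and 9 had an unadjusted p under 0.05 (11.2% of all tested genes). Chac1 had 0, 7 and 8 counts in Ddx41+/+ and 6 and 2 in Ddx41+/- with Trp53+/+, and 2, 12 and 6 against 0 and 8 with Trp53+/-. Chac1 did not pass the filter on low counts, so differences in it were not tested in the main fit.

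The phosphatase subunits were steady. Ppp1r15a (chromosome 7, 45522916 to 45526268) was at 2516, 2208 and 2154 CPM in Ddx41+/+ and at 2431 and 2624 CPM in Ddx41+/- with Trp53+/+. In the Trp53+/- mice, it was at 2424, 2717 and 2428 CPM against 2427 and 2635 CPM. All genotypes overlapped, and the log2 fold change was 0.14 (95% interval -0.03 to 0.31) with Trp53+/+ and 0.0045 (95% interval -0.16 to 0.17) with Trp53+/-. Ppp1r15b (chromosome 1, 133131143 to 133139783) was at 378, 402 and 409 CPM against 403 and 393 CPM with Trp53+/+. With Trp53+/-, it was at 401, 442 and 421 CPM against 441 and 464 CPM. The Ddx41 genotypes again overlapped in both (log2 fold changes of 0.0067 and 0.10), and over both Ddx41 genotypes Trp53+/- was 0.13 higher (95% interval 0.03 to 0.23, edgeR adjusted p = 0.313). Over all mice Ppp1r15a and Ppp1r15b had CVs of 7.28% and 6.40%. Of the 6 listed phosphatase genes, which add the catalytic subunits and the adaptor Nck1, 0 were called with either Trp53 genotype. Nck1 was at 0.58 ± 0.21 with Trp53+/+ (adjusted p = 0.350) and the catalytic subunit Ppp1cc at -0.18 ± 0.08 with Trp53+/- (adjusted p = 1.0).

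A single mouse held the highest value of several of these genes. Ddx41+/+Trp53+/- replicate 23 was the highest of the 10 mice for 5 of the 9 tested genes (Atf4, Ddit3, Trib3, Psat1 and Ppp1r15a) and the lowest for none, where it was the highest for 9.68% of all tested genes. It was also the highest for Chac1 with its 12 counts, and it was the highest for 6 of 40 other listed genes of the ATF4 program. Ddx41+/+Trp53+/+ replicate 12 was the lowest for 3 of the 9 (Atf4, Ddit3 and Ppp1r15a) and the highest for 2 (Eif2ak1 and Sesn2). The position of these mice was found after their values were seen.

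By Pearson's r of log2 CPM over the 10 mice, Asns was most like Fbxo38 (0.931), Zscan12 (0.888) and Aqp11 (0.879), and Psat1 was most like Tab1 (0.905), Tcof1 (0.902) and Pcbp1 (0.897). Sesn2 had lower values, with Lhfpl2 (0.805), Coq2 (0.804) and Smarcal1 (0.803). Ppp1r15a was most like Pold4 (0.912), Sema4b (0.899) and Gltscr1 (0.896), and Ppp1r15b was most like Parp16 (0.963), Cdh1 (0.949) and Piga (0.947). Beside Hnrnpm and Nufip2, Atf4 had Gpr132 (0.911) and Ddit3 had Atxn2l (0.934), and after Wars, Trib3 had Ciz1 (0.879) and Rad52 (0.856). No member was among the 3 genes most like another member.

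Among the other genes of the pathway, 1 was called. Atf3, a bZIP factor downstream of ATF4 that is also an immediate-early gene, was at 41.3, 44.2 and 31.6 CPM in Ddx41+/+ and at 74.0 and 55.3 CPM in Ddx41+/- with Trp53+/+. Among mice with Trp53+/-, it was at 31.2, 49.7 and 34.3 CPM against 69.0 and 61.6 CPM. All 4 Ddx41+/- mice were above all 6 Ddx41+/+ mice, and the log2 fold change over both Trp53 genotypes was 0.75 ± 0.12 (SE, edgeR adjusted p = 0.0251). This call was kept in 7 of 7 other settings. Among these, the unadjusted p and the missing fold limit only loosen the thresholds of the main fit and could not lose it. It was kept in 6 of 10 fits with 1 mouse left out, and was lost without replicate 10, 32, 34 or 46 (0.67 to 0.85 over the 10). Within each Trp53 genotype Atf3 was at 0.73 ± 0.18 (adjusted p = 0.0829) and 0.76 ± 0.18 (adjusted p = 0.785), neither called. The remaining 9 of the 10 listed ATF4 partners and feedback factors were not called in any comparison. Cebpb, a C/EBP partner of ATF4, was at 0.47 ± 0.15 with Trp53+/+ (adjusted p = 0.261) and -0.05 ± 0.15 with Trp53+/-.

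Most other immediate-early genes were higher in the Ddx41+/- mice with Trp53+/+, as Atf3 was, and less clearly so with Trp53+/-. Of the 19 listed, Atf3 included, 17 were higher in Ddx41+/- with Trp53+/+ (median log2 fold change 0.64), 15 of them without overlap (24.9% of all tested genes), and 2 were called (0.54% of all), Fosb (1.01 ± 0.17, edgeR adjusted p = 0.00673) and Klf6 (0.73 ± 0.16, adjusted p = 0.0493). Fosb was not called without replicate 32 or 34, and Klf6 was called in 3 of 10 fits with 1 mouse left out. Their summed level was 2593 to 3137 CPM in Ddx41+/+ and 3689 to 3878 CPM in Ddx41+/- with Trp53+/+, and 2957 to 3867 CPM against 3505 to 3835 CPM with Trp53+/-. With Trp53+/-, 14 of 19 were higher, 4 of them without overlap (20.0% of all tested genes), and 0 were called. In the Ddx41 effect over both Trp53 genotypes 18 of 19 were higher (median 0.39), and 11 had an unadjusted p under 0.05 (8.98% of all tested genes). There 3 were called (0.11% of all): Atf3, Fosb and Klf4 (0.69 ± 0.13, edgeR adjusted p = 0.0433). Fosb kept this call in 7 of 10 fits with 1 mouse left out and Klf4 in 2 of 10. Egr3 was called in the Trp53 effect of the Ddx41+/+ mice (1.68 ± 0.37, adjusted p = 0.0395), in 2 of 10 such fits. The part of the immediate-early genes in the Atf3 and Atf4 values was not tested.

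Of the genes in the ATF4 target lists 0 were called in any comparison, and the medians of the lists lay on both sides of 0. Of 12 aminoacyl-tRNA synthetases, which charge tRNAs and are induced by ATF4, 9 were lower in Ddx41+/- with Trp53+/+ (median -0.15) and 10 with Trp53+/- (median -0.13). Over both Trp53 genotypes 11 of 12 were lower (median -0.14, against 0.0004 over all tested genes), and 6 of 12 had an unadjusted p under 0.05 where 8.98% of all tested genes did. Aars, for alanine, was at 456, 444 and 489 CPM against 414 and 401 CPM with Trp53+/+. In the Trp53+/- mice, it was at 450, 441 and 421 CPM against 380 and 390 CPM. All 4 Ddx41+/- mice lay below all 6 Ddx41+/+ mice, at a log2 fold change of -0.18 ± 0.05 (edgeR adjusted p = 0.185). Sars, for serine, was at -0.23 ± 0.06 (adjusted p = 0.236).

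All 10 listed synthesis genes, which include Asns and Psat1, were lower in Ddx41+/- with Trp53+/- (median -0.18, 4 without overlap, beside 20.0% of all tested genes), and 7 of 10 were lower with Trp53+/+ (median -0.04). Shmt2, which makes glycine from serine in mitochondria, was at -0.28 ± 0.10 with Trp53+/- and -0.20 ± 0.10 with Trp53+/+ (edgeR adjusted p = 1.0 and 0.563). Mthfd2, of mitochondrial one-carbon metabolism, was at -0.17 ± 0.08 with Trp53+/-, and Aldh18a1, of proline synthesis, at -0.23 ± 0.15 with Trp53+/+. Of 8 listed genes of amino acid transport and tRNA export, 5 were lower with Trp53+/- (median -0.10), all 5 without overlap, where 20.0% of all tested genes did not overlap. Slc7a5, the large neutral amino acid transporter, was at -0.23 ± 0.07 with Trp53+/- (adjusted p = 1.0), while the glutamine carrier Slc38a2 was at 0.15 ± 0.12. With Trp53+/+, Slc38a2 was at 0.27 ± 0.12 (adjusted p = 0.467) and the tRNA exporter Xpot at -0.24 ± 0.10 (adjusted p = 0.427).

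The list of mTORC1 brakes and secreted factors had 6 tested genes, among them Herpud1, which is neither. Of these 6, 5 were higher in Ddx41+/- with Trp53+/+ (median 0.55) and 4 with Trp53+/- (median 0.20). With Trp53+/+, 4 were without overlap, where 24.9% of all tested genes did not overlap. Ddit4 (REDD1, an mTORC1 inhibitor) is also one of the listed p53 targets. It was at 5.96, 5.93 and 7.75 CPM against 9.92 and 9.78 CPM with Trp53+/+, a log2 fold change of 0.60 ± 0.20 (edgeR adjusted p = 0.285). Herpud1, of endoplasmic reticulum protein degradation, was at 59.5, 69.6 and 49.3 CPM against 78.8 and 98.3 CPM (0.56 ± 0.20, adjusted p = 0.336). For Ddit4 and for Herpud1 the Ddx41+/- mice exceeded all 3 controls, and neither gene was called. Sesn2 was the only one of the 6 that was lower with Trp53+/+. Vegfa, the angiogenic growth factor, was at 0.31 ± 0.23 with Trp53+/-. Among 14 genes of the unfolded protein response outside PERK, 11 were higher with Trp53+/+ (median 0.05) and 7 with Trp53+/- (median -0.02), with 0 called. The co-chaperone Dnajb9 was at 0.53 ± 0.18 (adjusted p = 0.286) and the chaperone Calr at 0.17 ± 0.07 (adjusted p = 0.467) with Trp53+/+.

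**Figure D4:**
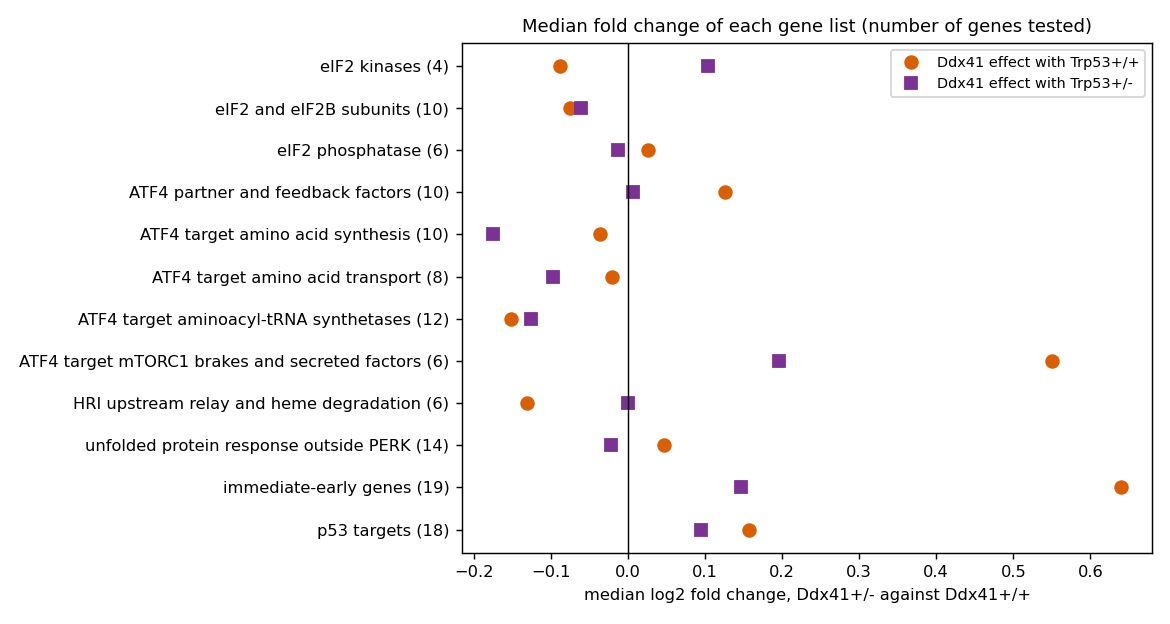
Median log2 fold change (x axis) of each gene list (y axis, number of tested genes in brackets), Ddx41+/- against Ddx41+/+, with Trp53+/+ (circles) and with Trp53+/- (squares). The immediate-early genes (0.64) and the mTORC1 brakes and secreted factors (0.55) lie highest with Trp53+/+, and the aminoacyl-tRNA synthetases lie below 0 in both (-0.15 and -0.13).

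Markers of some other cells differed between the same groups, while the 12 neutrophil markers had 0 called in any comparison. Of these 12, 10 were higher in Ddx41+/- with Trp53+/+ and 6 with Trp53+/-. In either, 0 of them were without overlap, where 24.9% and 20.0% of all tested genes were. Summed over 11 B cell markers, the level was 220 to 369 CPM in Ddx41+/+ and 371 to 536 CPM in Ddx41+/- with Trp53+/+. There all 11 were higher, 9 of them without overlap (24.9% of all tested genes). Of the 11, 2 were called (Cd79a and Ebf1), beside 0.54% of all tested genes, and Atf4 was higher too. With Trp53+/- the B cell sum was 398 to 482 CPM against 437 to 502 CPM, and 5 of 11 were higher. In the Trp53 effect of the Ddx41+/+ mice all 11 B cell markers were higher, 7 of them called, beside 0.912% of all tested genes. Summed over 12 macrophage and monocyte markers, the level was 260 to 362 CPM in Ddx41+/+ and 404 to 521 CPM in Ddx41+/- with Trp53+/-. There all 12 were higher with 0 called, and 7 were without overlap (20.0% of all tested genes). In the Trp53 effect of the Ddx41+/+ mice, where Atf4 and Ddit3 had positive values, all 12 were lower (median -0.62, 0 called). Of these 12, 9 had an unadjusted p under 0.05 (edgeR), where 9.44% of all tested genes did. Summed over 11 T and NK cell markers, the level was 23.6 to 29.9 CPM in Ddx41+/+ and 31.3 to 39.8 CPM in Ddx41+/- with Trp53+/+. There 8 of 11 were higher (median 0.64, 0 called), 4 of them without overlap (24.9% of all tested genes). Of 9 tested erythroid markers 8 were lower in Ddx41+/- with Trp53+/- (median -0.12, 0 called), where Eif2ak1, Trib3, Asns and Psat1 were lower as well. With Trp53+/+, 7 of these 9 were lower (median -0.04, 0 called), where Eif2ak1 was lower too. All 11 B cell markers of the count table and all 12 macrophage and monocyte markers passed the filter on low counts. The part of these cells in the values of the 10 genes was not tested.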

How the data were processed

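Poly(A) RNA of sorted R2 cells was sequenced as 75-base paired-end reads, 1 library per mouse, 10 mice. The authors deposited raw, unnormalized counts of reads for each gene symbol. The submitters' processing notes name FastQC 0.11.7, HISAT2 2.0.5, featureCounts 1.5.2 and mm10. The annotation and the strand setting of the counting are not given in the sources used here, and without the latter reads of overlapping genes on opposite strands cannot be assigned. The labels name a stranded kit, whereas the paper's methods name an unstranded one. Mice 35 and 45, which the counts are named as leaving out, were not analysed here.

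Genes passing edgeR's filter by genotype (11846) were scaled by TMM and fitted in 1 quasi-likelihood model (edgeR 4.0.16, R 4.3.3) with a mean per genotype, or additively for the effects over both genotypes of the other gene. Two-sided p values were adjusted over all tested genes (Benjamini-Hochberg), and a call required more than a 1.5-fold change together with an adjusted p below 0.05. CPM used the scaled libraries. Adjusted p from edgeR close to 1 are printed as 1.0. Single genes were also compared by exact permutation of mean log2 CPM (prior count 2), within genotypes of the other gene for the additive comparisons. The scripts were checked with simulated counts. The libraries held 7866648 to 20283930 counts, and the members with the fewest were Chac1 (0 to 12), Trib3 (28 to 100) and Psat1 (106 to 268). Counting noise and differences between mice were not separated in the spread. The p values rest on the spread between recipient mice. The paper does not state how many donors gave the marrow of each genotype. Lengths and positions are from GENCODE M21 (GRCm38), and promoter sequences from RefSeq (GRCm38.p6). DELE1 and Mars1 are listed as 0610009O20Rik and Mars. No stretch of 75 bases of a member's longest transcript occurred in a transcript of another gene.

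The members and lists were chosen with earlier results of these data known. Named were all 10 members, every gene called in the lists other than cell type markers, the 2 genes per pathway list with the smallest unadjusted p in each Ddx41 effect, and the 3 genes most like a member over the 10 mice. Tried as alternatives were DESeq2 1.42.0 or its size factors, other filters (none, or 10 counts required throughout), a fit restricted to the genotypes compared, the likelihood ratio test, calls by unadjusted p or without a fold limit, median transcript lengths, and each mouse left out.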

Additional observations from a re-analysis of the deposited data

Results flagged for a closer look

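In the Ddx41+/+ mice (n = 6), Trib3 in Ddx41+/+Trp53+/- replicate 23 was at 6.18 CPM, and its gap to the next mouse was 0.664 of the whole range. In the Ddx41+/- mice (n = 4), Psat1 in Ddx41+/-Trp53+/+ replicate 34, the shallowest library, was at 13.5 CPM, with a gap of 0.907 of the range. These were 2 of 40 sets of mice examined, and chance places a sample this far from the others in about 1 of 20 groups.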

How the results depend on the processing

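None of the members was called under any alternative except that Trib3 passed at the unadjusted p in the Ddx41 effect with Trp53+/- and in the difference between the Ddx41 effects (1 member called in each, against 0). Of 297 log2 fold changes of members in fits other than leaving out a mouse, 296 kept their direction, and the smallest adjusted p was 0.0536 (Ddit3, Trp53 effect over both Ddx41 genotypes, no filter). Asns in the Ddx41 effect with Trp53+/+ went from -0.0064 to 0.000745 with at least 10 counts in every library. With each mouse left out, 499 of 540 kept their direction, the smallest adjusted p was 0.0967, and 41 changed sign, among them Trib3 in the Trp53 effect of the Ddx41+/+ mice, which went from 0.52 to -0.060 without replicate 23.

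For the Ddx41 effect with Trp53+/+, the range over mice left out was -0.14 to 0.11 for Asns, -0.30 to 0.26 for Psat1, -0.17 to 0.12 for Sesn2 and -0.027 to 0.030 for Ppp1r15b. With Trp53+/- it was -0.074 to 0.088 for Atf4 and -0.044 to 0.065 for Ppp1r15a. For the difference it was -0.082 to 0.17 for Ddit3 and -0.0027 to 0.10 for Eif2ak1. For the Trp53 effect in the Ddx41+/+ mice it was -0.060 to 0.85 for Trib3, -0.0098 to 0.055 for Asns, -0.055 to 0.046 for Eif2ak1 and -0.14 to 0.057 for Sesn2. Over both Ddx41 genotypes it was -0.46 to 0.15 for Trib3, -0.069 to 0.011 for Asns, -0.0078 to 0.045 for Eif2ak1 and -0.086 to 0.11 for Psat1.

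Counts of all genes called moved more. For the Ddx41 effect with Trp53+/+ they went from 64 to 128 with DESeq2, 243 with no filter, 182 with the likelihood ratio test and 540 at the unadjusted p, and ranged from 13 (without replicate 34) to 103 (without replicate 12). With Trp53+/- they went from 5 to 39 with no filter, 2 with at least 10 counts, 9 with the likelihood ratio test and 171 unadjusted (1 to 10 over mice left out). For the difference they went from 8 to 28 with DESeq2, 100 with no filter, 34 with the likelihood ratio test and 378 unadjusted (8 to 12). For the Trp53 effect in the Ddx41+/+ mice they went from 108 to 250 with no filter, 66 with only the genotypes compared, 219 with the likelihood ratio test and 535 unadjusted (35 to 115). For the Ddx41 effect over both genotypes they went from 13 to 38 with DESeq2, 94 with no filter, 8 with at least 10 counts, 52 with the likelihood ratio test and 259 unadjusted (2 to 42). For the Trp53 effect over both they went from 34 to 88 with DESeq2, 181 with no filter, 133 with the likelihood ratio test, 395 unadjusted and 52 with no limit on the fold change (20 to 79). The cause was not tested. A fit of only the genotypes compared was not run for the difference or the effects over both genotypes. No paired analysis was possible because the genotypes share no replicate numbers.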
